A study of Mus musculus with 6 samples.

Results

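Sox4, Sox11 and Sox12 make up the SoxC group of the Sox transcription factors, and RNA-seq counts of their transcripts were compared between 2 genotypes of cultured mouse OPCs (oligodendrocyte progenitor cells), the dividing precursors of myelin-forming oligodendrocytes. The 3 genes were taken by symbol from 24421 listed genes. They were chosen by their CPM (gene counts scaled to a common library total) in knockout against control libraries, already known from an earlier look at this comparison. Their difference between the groups is therefore given as a description, without a test. The control group held 3 libraries of the genotype Prrc2bf/f, in which both Prrc2b alleles are floxed and no Cre is present. The knockout group held 3 libraries of the genotype Prrc2bf/f; Olig2-Cre, which carry the same floxed alleles and a Cre recombinase under the control of Olig2. All mice were C57BL/6J pups at postnatal day 4, and cells were panned from cortex with antibodies to GalC and then O4 and cultured in a medium for proliferation. The series' design text names brain tissue instead. Olig2 is expressed by the oligodendrocyte lineage and by some other neural precursors, so recombination need not be limited to OPCs, and a group with Cre but unfloxed Prrc2b was not analysed here, so Cre effects and Prrc2b loss cannot be told apart. Separate animals are not stated for the replicates, so the spread that p-values rest on may be technical. The study asks how reduced myelination arises when Prrc2b, which encodes an RNA-binding protein, is missing.

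SoxC factors bind DNA through an HMG box, a domain that bends the double helix, and activate transcription through a shared region at the end of the protein. They are best known in newborn neurons, where they switch on genes of neuronal differentiation and often act with POU and proneural bHLH factors. In the oligodendrocyte lineage Sox4 and Sox11 are found in precursors, decline during differentiation, and can hold back the expression of myelin genes when kept high.

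All 3 genes are short, dominated by untranslated sequence and coded on the minus strand (coordinates from the GENCODE annotation of GRCm38, the build named as mm10 in the processing notes). Sox4 (ENSMUSG00000076431.4) lies at chr13:28948919-28953713, in a single exon of 4795 bases of which 1320 are coding. Sox11 (ENSMUSG00000063632.6) lies at chr12:27334264-27342574, likewise in a single exon, with 1185 coding bases among 8311. Sox12 (ENSMUSG00000051817.8) lies at chr2:152393611-152398063, with 942 coding bases in a longest transcript of 4453, and 1 of its 2 annotated transcripts has 2 exons. Untranslated sequence thus made up 72.5% of the Sox4 transcript, 85.7% of Sox11 and 78.8% of Sox12. The annotation places the non-coding gene Gm26735 across 2616 exonic bases of Sox4 on the opposite strand. Gm26735 is not among the listed genes and no source used here gives the strand setting of the counting, so antisense reads in the Sox4 count cannot be told apart.

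The members are close relatives in their coding sequence, which bears on whether reads could be shared between them. Over the best-matching 240 coding bases of each comparison Sox4 was identical to Sox11 at 215 (89.6%) and to Sox12 at 207 (86.2%). The place of these stretches relative to the HMG box was not determined. The 60 coding bases most alike in all 3 are shown here from the GENCODE transcripts, with positions at which the genes differ in capitals; 54 of the 60 are identical. They span coding bases 331 to 390 of Sox4, 301 to 360 of Sox11 and 274 to 333 of Sox12, counted from the start codon.
Sox4: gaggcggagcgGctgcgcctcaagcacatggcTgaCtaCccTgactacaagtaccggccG
Sox11: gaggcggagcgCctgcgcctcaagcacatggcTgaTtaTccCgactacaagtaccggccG
Sox12: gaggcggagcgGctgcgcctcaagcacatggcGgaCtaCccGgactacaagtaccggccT
The longest run of identical bases between whole transcripts was 48 for Sox4 and Sox11, 33 for Sox4 and Sox12 and 20 for Sox11 and Sox12. Each is shorter than the 150 bases read from either end of a fragment, so no full-length read would match 2 members exactly.

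The 250 bases before each start site are shown because the 3 genes were lower together in the knockout libraries. They come from RefSeq's annotation of GRCm38.p6, on the minus strand, at chr13:28953700-28953949 for Sox4, chr12:27342719-27342968 for Sox11 and chr2:152398047-152398296 for Sox12. Capitals mark the letters CCAAT in either orientation and, in Sox12, the octamer ATGCAAAT, the letters of the classical POU octamer.
Sox4: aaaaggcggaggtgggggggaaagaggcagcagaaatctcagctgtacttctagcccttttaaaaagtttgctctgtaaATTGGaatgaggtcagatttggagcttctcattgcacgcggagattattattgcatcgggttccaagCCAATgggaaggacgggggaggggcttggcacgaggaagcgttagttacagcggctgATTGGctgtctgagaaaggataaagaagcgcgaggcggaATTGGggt
Sox11: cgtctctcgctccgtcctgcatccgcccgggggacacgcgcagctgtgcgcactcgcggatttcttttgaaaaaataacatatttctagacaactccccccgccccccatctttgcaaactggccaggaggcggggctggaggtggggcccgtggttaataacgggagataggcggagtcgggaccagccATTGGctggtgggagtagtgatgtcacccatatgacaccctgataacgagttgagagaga
Sox12: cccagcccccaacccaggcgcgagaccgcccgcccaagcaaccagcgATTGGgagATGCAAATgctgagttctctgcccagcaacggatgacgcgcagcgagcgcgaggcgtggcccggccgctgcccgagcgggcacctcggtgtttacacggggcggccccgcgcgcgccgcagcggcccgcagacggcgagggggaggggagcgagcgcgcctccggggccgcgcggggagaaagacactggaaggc
CCAAT occurred 4 times before Sox4, once before Sox11 and once before Sox12, and 33.8% of 32851 promoters of the same length held it on either strand. GENCODE places the start of Sox4 at chr13:28953713 and that of Sox12 at chr2:152398063, inside these RefSeq windows. The Sox4 match from base -8 to -4 therefore lies within the GENCODE exon. GGGCGG, the GC box, occurred 0 times before Sox4, 2 times before Sox11 and 3 times before Sox12, where a pair of matches overlaps, against 32.7% of promoters with a match. ATGCAAAT stood only before Sox12, from base -195 to -188, and 1.6% of promoters held it; among these motifs it does not overlap the CCAAT match beside it. TATAAA (12.4% of promoters) and AACAAAG (5.03%) were not among the letters of any of the 3 windows. GC content was 50.8% before Sox4, 58% before Sox11 and 74.4% before Sox12, where the median promoter had 52.4%. The windows thus shared the CCAAT letters and little else that was searched, and a match is a description of letters, not of binding.

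The libraries carried RNA of more than OPCs, which matters for genes as widespread as these. Total gene counts ranged from 26015604 to 28114968, and 15906 genes passed the filter on low counts, all 3 members among them. The 16 OPC markers summed to between 3577 and 6868 CPM (here and below scaled by TMM), and the 22 immature neuron markers to between 4203 and 6617 CPM, with 0 markers of either list at 0 in all libraries. Astrocyte markers (14 genes) summed to between 1635 and 3413 CPM. A count in bulk RNA does not tell fewer cells of a type from less RNA per cell, and this holds for every value that follows. The targeted gene, Prrc2b, stood at 932, 1111 and 925 CPM in control replicates 1, 2 and 3 and at 649, 824 and 757 CPM in the knockout. The groups did not overlap, but the knockout mean was 0.751 of the control mean, a ratio close to those of Sox4 (0.757) and Sox12 (0.765). Counts over the whole gene do not show the deletion itself, and 572 tested genes separate the groups in the same direction, so this is a weak check of the labels.

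Sox4, the most abundant member per length, was lower in the knockout without overlap between the groups. Its level was 753, 926 and 726 CPM in control replicates 1, 2 and 3, from counts of 20401, 24282 and 20523. In the knockout replicates it was 570, 709 and 540 CPM, from 15659, 19939 and 14304 counts. The highest knockout library came close to the lowest control library, and replicate 2 was the highest of each group. Means were 802 ± 109 and 607 ± 90.4 CPM (SD, n = 3 each), and the log2 fold change was -0.40 (SE 0.15, edgeR, group as the only term). Blocking on the replicate number gave the same change, -0.40, with an SE of 0.04. The ratio of knockout to control within the same number was 0.757, 0.766 and 0.744, so the 3 pairs gave nearly the same ratio.

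Sox11, which together with Sox4 drives neuronal differentiation genes in newborn neurons, was lower in each same-numbered pair, but its groups overlapped. Control replicates 1, 2 and 3 stood at 743, 1123 and 737 CPM, from counts of 20134, 29454 and 20828. Knockout replicates stood at 623, 946 and 604 CPM, from 17108, 26599 and 15986 counts. Knockout replicate 2 was above control replicates 1 and 3, and replicate 2 of either group stood apart from the other two. Means were 868 ± 221 and 724 ± 193 CPM (SD, n = 3 each), a log2 fold change of -0.26 (SE 0.25) without the block and -0.26 (SE 0.04) with it. Ratios within pairs were 0.838, 0.843 and 0.819. The difference between the groups was smaller than the spread between replicates of a group and larger than the spread between the 3 pair ratios. Without control replicate 2 the log2 fold change was -0.03, and without knockout replicate 2 it was -0.50 (edgeR, no block).

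Sox12, the member with the weakest activating region and usually the mildest role, was the least abundant, and its groups did not overlap. Control replicates stood at 107, 124 and 126 CPM, from 2897, 3256 and 3561 counts. Knockout replicates stood at 75.0, 92.7 and 106 CPM, from 2061, 2605 and 2796 counts. Knockout replicate 3 lay just below control replicate 1. Means were 119 ± 10.5 and 91.1 ± 15.3 CPM (SD, n = 3 each), a log2 fold change of -0.39 (SE 0.15), and -0.40 (SE 0.06) with the block. Unlike those of Sox4 and Sox11, the pair ratios of Sox12 were spread, at 0.702, 0.746 and 0.838. The ratios of Prrc2b in the same pairs were 0.696, 0.742 and 0.818. How many tested genes come as close to these was not counted, so nothing is read from the likeness.

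**Figure D1:**
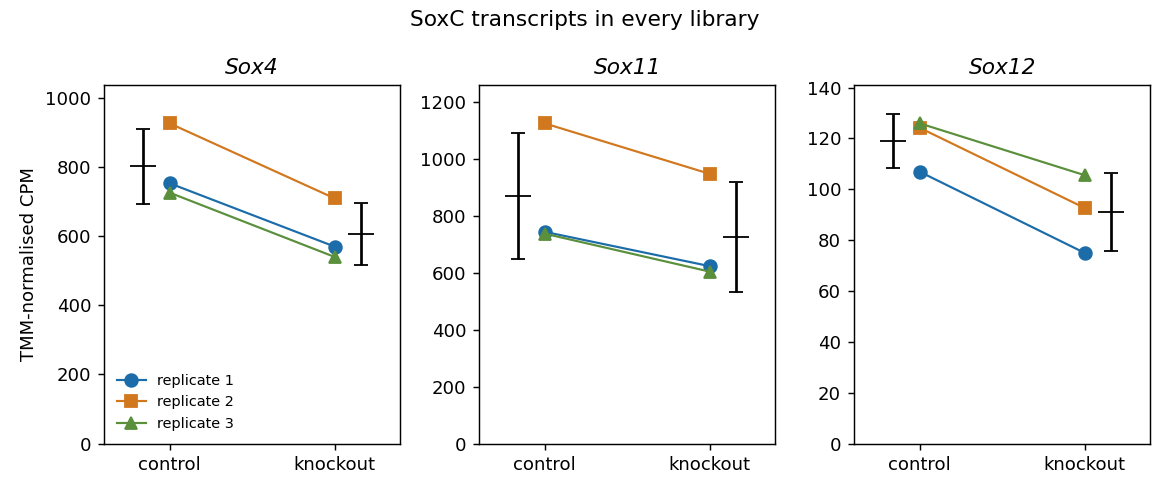
TMM-normalised CPM (vertical axis, from 0) of Sox4, Sox11 and Sox12 in 3 control and 3 knockout libraries, with lines joining libraries of the same replicate number and black bars for mean ± SD (n = 3). All 9 lines fall from control to knockout; the groups overlap for Sox11 only.

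The 3 genes were thus lower in the knockout in 9 of 9 gene and pair combinations. In 3.6% of tested genes (572 of 15906) every knockout library lay below every control library, as for Sox4 and Sox12 (6.34% on 1 side in either direction), and 20.9% of tested genes (3320) were lower in all 3 pairs, as for all 3 members. Since the genes were taken up with this contrast known, nothing is read from that count. Among tested genes 3.1% had a lower blocked log2 fold change than Sox4, 3.21% a lower one than Sox12 and 6.65% a lower one than Sox11. Summed over the 3 genes, SoxC transcripts averaged 1788 ± 334 CPM in the control group and 1422 ± 283 CPM in the knockout group (SD, n = 3 each), at 0.791, 0.804 and 0.787 of control within the pairs.

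The composition of the SoxC pool differed little between the group means, though in each pair the Sox4 share fell and the Sox11 share rose. The shares are parts of 1 sum, so these movements are not separate observations. Per exonic length (RPKM, CPM per kilobase), Sox4 made up 56.2% ± 1.93 of the SoxC sum in the control and 54.2% ± 2.06 in the knockout group (SD, n = 3 each). Sox11 made up 34.7% ± 2.83 and 36.9% ± 2.99, and Sox12 9.08% ± 1.37 and 8.90% ± 2.14. Each of these differences was within about the spread between replicates. Within pairs 1, 2 and 3 the Sox4 share fell from 58.1% to 56.4%, 54.2% to 52.3% and 56.4% to 53.9%. The Sox11 share rose from 33.1% to 35.6%, 37.9% to 40.3% and 33.0% to 34.8%, and that of Sox12 had no common direction. The RPKM ratio of Sox4 to Sox11 was 1.76, 1.43 and 1.71 in control replicates 1, 2 and 3. It was 1.59 in knockout replicate 1 and 1.55 in knockout replicate 3, lower in each of the 3 pairs. In replicate 2 Sox11 took its largest share, 37.9% in control and 40.3% in knockout.

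Per length, Sox4 and Sox11 were among the most abundant Sox transcripts of these cultures. Sox2, the SoxB factor of neural stem and progenitor cells, led the family at 238 ± 57.3 RPKM (control) and 195 ± 58.1 RPKM (knockout; SD, n = 3 each). Sox4 followed with 167 ± 22.7 and 126 ± 18.9 RPKM, and was below Sox2 and above Sox11 in 6 of 6 libraries. Sox11 came next with 104 ± 26.7 and 87.1 ± 23.2 RPKM, above the glial factor Sox9 (31.9 to 76.9 RPKM over all libraries) in 5 of 6 libraries. Ranges of neighbours over all libraries overlapped from Sox2 down to Sox6, although Sox8 was above Sox10 and Sox10 above Sox21 in 6 of 6 libraries too. Sox12 ranked ninth of 20 Sox genes listed at 26.7 ± 2.36 and 20.5 ± 3.44 RPKM, behind Sox21, which it exceeded in 4 of 6 libraries, and above Sox3 in 6 of 6. The lineage factor Sox10, which activates myelin genes, stood at 30.9 ± 6.83 and 27.7 ± 14.4 RPKM. The ranks of the 3 SoxC genes were the same with the length of the longest transcript in place of merged exons.

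**Figure D2:**
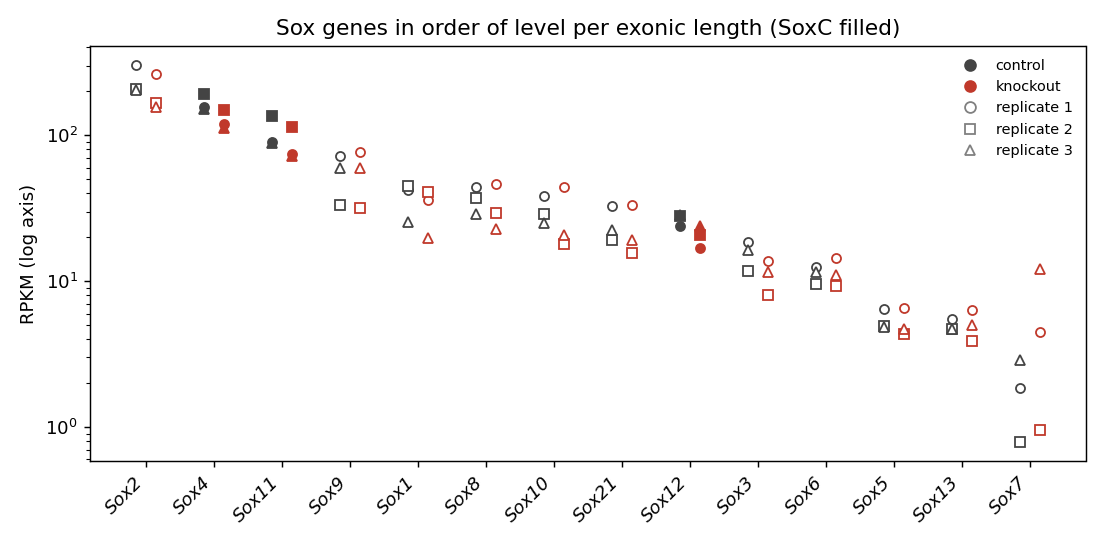
RPKM on a log axis of the 14 Sox genes with at least 1000 counts in all, in order of mean level, one point per library (grey control, red knockout, shape for the replicate number, SoxC filled). Sox4 and Sox11 rank next behind Sox2, and Sox12 ranks ninth.

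Other Sox genes mostly did not pass the test. Without the replicate block, edgeR's quasi-likelihood test passed 0 of 15906 genes (0%), with 274 at an unadjusted p under 0.05, DESeq2 called 20 and limma-voom 0. The group-only test was the planned one, with the block as its listed alternative. Calls that follow are those of the blocked test, taken up because the planned test passed 0 genes. They rest on equal replicate numbers being pairs, which the labels do not state. The gene lists here and below were chosen with earlier results of these data known. Their counts beside the share over all genes are therefore a description and no evidence about a list. The blocked test called 604 genes (3.8%), 250 higher (1.57%) and 354 lower (2.23%) in the knockout. The split depends on scaling: it was 271 higher and 231 lower with library totals, 289 and 247 with upper quartile scaling and 198 and 186 with GC correction. Of 17 other Sox genes 14 were tested, of which 3 fell, 1 rose and 10 did not pass, with a median log2 fold change of -0.11 where all tested genes had 0.00. All 3 that fell are of the SoxB1 group of neural progenitor factors. Sox2 changed by -0.30 (SE 0.04, edgeR adjusted p = 0.00893, range over alternatives with the block 9.8e-07 to 0.0442), lower in 3 of 3 pairs. Sox1 changed by -0.25 (SE 0.05, edgeR adjusted p = 0.0250, range 0.00416 to 0.136) and Sox3 by -0.49 (SE 0.09, edgeR adjusted p = 0.0176, range 0.00290 to 0.0834), each lower in 3 of 3 pairs. Sox7, a SoxF factor of endothelial cells, rose by 1.35 (SE 0.26, edgeR adjusted p = 0.0266, range 0.000963 to 0.204) from 6.07 ± 3.44 to 19.2 ± 18.7 CPM (SD, n = 3 each). Sox1, Sox3 and Sox7 were no longer called when pair 3 was left out (edgeR adjusted p 0.136, 0.0834 and 0.204), which left 1 call among 14. Sox3 also lost it after correction for GC content (0.0723), and Sox7 in DESeq2 with the block (0.170).

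Factors chosen as candidate partners of SoxC proteins were lower in part. Of 14 POU and bHLH factors and Pax6, 13 were tested, 4 fell, 0 rose and 9 did not pass, with a median log2 fold change of -0.11. Over all tested genes 2.23% fell and 1.57% rose. Pou3f3 (Brn1) went from 498 ± 57.2 to 407 ± 57.8 CPM (SD, n = 3 each), a blocked change of -0.29 (SE 0.04, edgeR adjusted p = 0.00647, range 1.76e-07 to 0.0253). Pou3f2 (Brn2), a neural POU factor that can act together with SoxC proteins, changed by -0.25 (SE 0.03, edgeR adjusted p = 0.00716, range 0.000285 to 0.0460). Both were lower in 3 of 3 pairs and passed in every alternative with the block. Pou3f1 changed by -0.72 (SE 0.11, edgeR adjusted p = 0.0121, range 0.000908 to 0.116), at a low level of 19.4 ± 16.6 CPM in control libraries, and lost the call without the pair numbered 3. Tcf3, an E-protein that pairs with proneural bHLH factors, changed by -0.23 (SE 0.05, edgeR adjusted p = 0.0373, range 0.00789 to 0.404), and by -0.09 after GC correction. It lost the call there, with library totals, upper quartile scaling or a mean of at least 5 CPM, and without pair 1 or pair 2, so the list held 3 calls in each of these settings.

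Genes chosen as candidate targets of SoxC factors in neuronal differentiation were also lower in part. Of these 18 tested genes 5 fell, 0 rose and 13 did not pass, with a median log2 fold change of -0.16, where 2.23% of all tested genes fell. Since this list too was chosen with earlier results known, nothing is read from that count. Mex3b, an RNA-binding protein gene, went from 201 ± 36.5 to 154 ± 33.6 CPM (SD, n = 3 each; blocked change -0.39, SE 0.04, edgeR adjusted p = 0.00258, range 1.67e-08 to 0.0205). Dbn1, encoding the actin-binding protein drebrin, changed by -0.31 (SE 0.05, edgeR adjusted p = 0.0104, range 1.32e-07 to 0.0432). Tubb3, the neuronal tubulin gene and a well-known SoxC target, went from 744 ± 87.4 to 640 ± 109 CPM (blocked change -0.22, SE 0.05, edgeR adjusted p = 0.0417, range 0.000563 to 0.231). Mex3a changed by -0.20 (edgeR adjusted p = 0.0248, range 0.00291 to 0.153) and Marcksl1, named after its values were seen, by -0.22 (edgeR adjusted p = 0.0426, range 0.000405 to 0.242). Each of the 5 was lower in 3 of 3 pairs. Without the pair numbered 1 or the pair numbered 3 the list held 2 calls, Mex3b and Dbn1 being the ones left, and with GC correction, library totals, upper quartile scaling or a mean of at least 5 CPM it held 3. Hes5, a Notch effector that has been tied to Sox4 in oligodendrocyte precursors, stood at 40.5 ± 6.09 and 34.9 ± 4.34 CPM and did not pass (blocked change -0.21, SE 0.08, edgeR adjusted p = 0.181). It was chosen for that link and not by the rule for named genes.

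**Figure D3:**
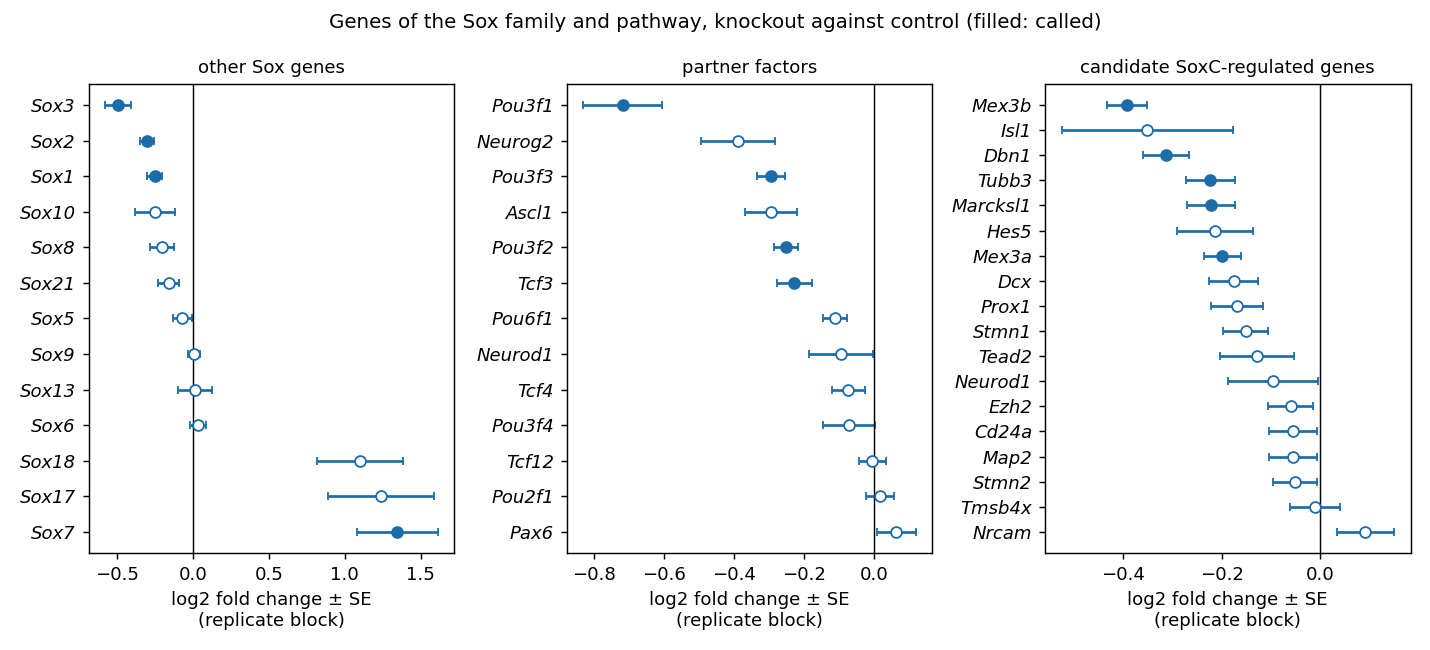
Blocked log2 fold change ± SE (horizontal axis; scales differ between panels) of tested other Sox genes, partner factors and candidate SoxC-regulated genes, filled where edgeR's adjusted p was under 0.05. Sox30, at under 1 CPM, is left out; 12 of the 13 filled points lie below 0 and Sox7 above.

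Regulators of oligodendrocyte differentiation, the step that SoxC factors are known to restrain, mostly did not pass. Of 26 such genes 3 fell, 0 rose and 23 did not pass, with a median log2 fold change of -0.07, where 2.23% of all tested genes fell. The 3 were Sox2 and Sox3, counted above, and Id4, an inhibitor of bHLH factors, at -0.24 (SE 0.05, edgeR adjusted p = 0.0331, range 0.0122 to 0.130), which lost the call without any 1 of the 3 pairs and with library totals, upper quartile scaling or a mean of at least 5 CPM. Olig2, the gene that the Cre is named after, stood at 235 ± 108 and 184 ± 138 CPM (SD, n = 3 each) and did not pass (blocked change -0.50, SE 0.12, edgeR adjusted p = 0.0533, range 0.000439 to 0.324). The genotype label does not say whether the Cre sits in the Olig2 gene itself. The list held 6 calls without the pair numbered 1 and 1 without the pair numbered 3. Of the 13 tested myelin and mature oligodendrocyte markers 0 passed in the blocked edgeR test, with 1 at an unadjusted p under 0.05. Their sums differed between pairs in sign, by 1.13, -0.85 and 0.19 log2 units, knockout over control. Without pair 2 the list held 5 calls, all higher, with a median of 0.48, and without pair 1 it held 0 with a median of -0.34. Myelin basic protein (Mbp) stood at 205 ± 186 and 205 ± 97.3 CPM (SD, n = 3 each; edgeR adjusted p = 0.771 with the block, range 0.0414 to 0.964).

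Immature neuron markers were lower in the same libraries as the SoxC genes. Of 22 such genes 10 fell, 0 rose and 12 did not pass, with a median log2 fold change of -0.27, where 2.23% of all tested genes fell. Among the 10 were the inhibitory precursor genes Dlx1 (blocked change -0.24), Dlx2 (-0.44), Dlx5 (-0.38) and Sp9 (-0.63). Tubb3 (-0.22), Elavl3 (-0.28) and Igfbpl1 (-0.38) also fell. Stmn2 (-0.05), Cd24a (-0.06), Elavl4 (-0.11) and Gap43 (-0.17) were among the 12. These genes were named after their values were seen. The list held 7 calls without pair 3 and 13 with DESeq2 and the block. The summed level of the 22 markers was 0.31, 0.19 and 0.23 log2 units lower in the knockout of pairs 1, 2 and 3. In control replicates 1, 2 and 3 they summed to 5198, 6617 and 5181 CPM, and in knockout replicates to 4203, 5804 and 4414 CPM. Replicate 2 was highest in both groups, as for Sox4 and Sox11. Dcx, a microtubule protein of migrating neurons and their most abundant marker here, stood at 1033 ± 194 and 922 ± 225 CPM (SD, n = 3 each) and did not pass (blocked change -0.18, SE 0.05, edgeR adjusted p = 0.0965, range 0.00663 to 0.408). The list shares 5 genes with the candidate targets, Tubb3 and Dcx among them. Of 14 mature neuron markers 1 fell and 0 rose. The part of neuronal RNA in the lower SoxC values was not tested.

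Markers of astrocytes, vessels and choroid plexus were called higher where they were called, and those of OPCs had no common direction. The OPC markers had 0 calls among 16 in the blocked edgeR test, with 4 at an unadjusted p under 0.05. They had 1 with DESeq2, 1 with limma-voom and 2 without pair 1, and their sums in the pairs differed by 0.22, -0.01 and 0.04 log2 units, knockout over control. Ptprz1, the most abundant of them, stood at 1974 ± 524 and 2241 ± 641 CPM (SD, n = 3 each; blocked change 0.18, SE 0.06, edgeR adjusted p = 0.123, range 0.00570 to 0.428). Of 12 markers of dividing cells 1 fell and 0 rose, and their sum moved by -0.03, -0.12 and 0.23 log2 units in the pairs. Astrocyte markers rose in 4 of 14, endothelial markers in 10 of 12, and choroid plexus and ependymal markers in 7 of 10, with 0 falling in each list. Among all tested genes 1.57% rose and 2.23% fell. Without pair 3 the calls were 5 of 12 endothelial and 3 of 10 choroid plexus and ependymal markers. The sums of endothelial markers were 23.4 to 110 CPM in control and 53.9 to 363 CPM in knockout libraries. Those of choroid plexus and ependymal markers were larger, at 369 to 1926 and 868 to 2820 CPM. Pericyte and fibroblast markers rose in 2 of 12 with 0 falling, with sums of 116 to 747 and 168 to 1159 CPM. Microglia markers had 0 calls among 10, with sums of 14.4 to 261 and 13.5 to 261 CPM. The part of these cells in the SoxC values was not tested.

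**Figure D4:**
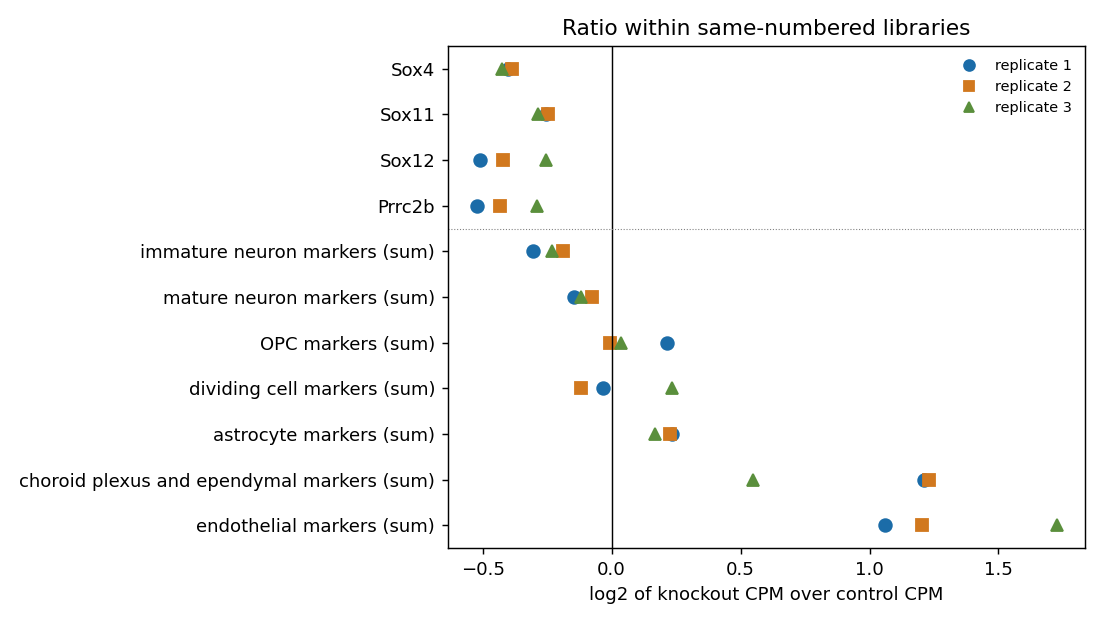
Log2 ratio of knockout over control CPM within each same-numbered pair (horizontal axis; colour and shape for the replicate number) for the SoxC genes and Prrc2b, above the dotted line, and for summed cell type markers, below it. Sox4 and Sox11 show nearly the same ratio in all 3 pairs, immature and mature neuron markers are below 0 in all 3, and OPC markers scatter about 0.

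Sox12 lies among the tested genes of highest GC content, which were lower in the knockout on the whole, and Sox4 and Sox11 do not. GC made up 51.1% of the Sox4, 46.5% of the Sox11 and 59.9% of the Sox12 transcript. In the twentieth of tested genes with the highest GC content, which holds Sox12, the median blocked log2 fold change was -0.15 and 119 of 762 genes fell. Among genes of the GC content of Sox4 the median was 0.02 with 12 of 763 falling, and among those of Sox11 it was 0.03 with 7 of 760 falling. After correction for GC content the blocked change of Sox12 was -0.25 (SE 0.06), that of Sox4 -0.41 (SE 0.05) and that of Sox11 -0.29 (SE 0.05), and the part of GC content in the 3 values was not otherwise tested.

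**Figure D5:**
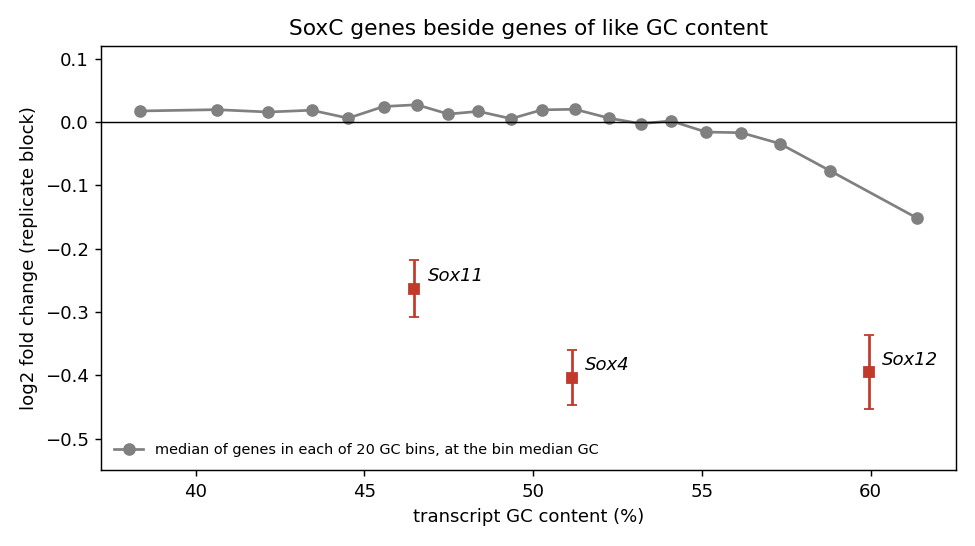
Blocked log2 fold change (vertical axis) against transcript GC content in percent for the SoxC genes (red squares, ± SE) and for the median of tested genes in 20 bins of GC content (grey). The grey medians stay near 0 up to about 55% and reach -0.15 in the bin of highest GC content, where Sox12 lies.

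Sox4 and Sox11 are annotated with a single exon only. The longest Sox12 transcript, of 4453 bases, also spans its gene without an intron, and the other Sox12 transcript has 2 exons. The classes that follow go by the transcript with the most exons, and the members are left out of both. Genes of the lists above, the SoxB1 and POU factors that fell among them, were not left out. Their exon numbers are not given here. Of the 299 other tested protein-coding genes annotated with a single exon, 27 fell (9.03%) and 1 rose (0.334%), against 313 (2.2%) and 242 (1.7%) of 14200 with several exons. Single-exon genes were richer in GC, with a median of 53.3% against 49.9%. Among genes of at most 52.7% GC, 6 of 138 single-exon genes fell (4.35%) and 73 of 9190 with several exons (0.794%). The comparison was added after the values were seen and carries no test, and the part of exon number in the SoxC values was not tested.

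By pattern over the 6 libraries, the genes most like Sox4 were not other Sox genes. Likeness was the Pearson correlation of log2 CPM over 6 libraries among the 11668 genes averaging 5 CPM or more, of which the 5 highest per member are named; with so many genes and so few libraries, high values are common, and libraries of 1 number share differences. For Sox4 these were Wiz (0.998), Ankrd13b (0.992), Rps15 (0.988), Samd14 (0.986) and Mvb12b (0.986). For Sox11 they were Ctif (0.996), Nedd4l, Tubb5, Akap8 and Socs7 (each 0.993 or 0.994). For Sox12 they were Epn1 (0.989), Nxpe3 (0.987), Panx1 (0.982), Fkbp8 (0.981) and Zfp330 (0.980). Tubb5, a tubulin abundant in developing neural cells, stood at 1844 ± 358 and 1666 ± 316 CPM (SD, n = 3 each). Between the members themselves the correlation was 0.888 for Sox4 and Sox11, 0.627 for Sox4 and Sox12 and 0.424 for Sox11 and Sox12.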

How the data were processed

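Poly(A) RNA was made into stranded libraries and read from both ends, per the labels' protocols. The deposited files hold raw counts per gene symbol, not normalised by the authors. Tools listed without roles in the submitters' processing notes are DESeq2 1.26.0, HTSeq 0.12.4 and HISAT2 2.2.1, with the build mm10. No source used here gives the annotation or the strand setting. Summary entries that name no gene (27.7% to 31.1% of all read pairs per library) were left out, and 0 per-sample columns were unused.

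Counts were filtered by expression, scaled by TMM and tested with edgeR 4.0.16 (quasi-likelihood, two-sided, Benjamini-Hochberg over 15906 genes, called at an adjusted p under 0.05) (R 4.3.3), first on group alone and again with the replicate number as a block. Both groups carry the numbers 1, 2 and 3 in the labels, which do not say what a number marks. Libraries 1, 2 and 3 deviated from their group means together with their namesakes (r = 0.712, 0.682 and 0.654), so equal numbers were treated as pairs. SE is the fitted change divided by the root of F.

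Members and lists were chosen with earlier results of these data known. Named were the members and Prrc2b, the 5 genes most like each member, up to 4 genes per pathway list by blocked adjusted p, and up to 2 per marker list by level. Alternatives were other scalings, filters, DESeq2 1.42.0, limma-voom (limma 3.58.1), GC correction in 20 bins (GC known for 15332 tested genes) and left-out libraries or pairs.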

Additional observations from a re-analysis of the deposited data

Results flagged for a closer look

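Of 5 classes of read pairs outside the gene counts, which enter none of the comparisons, 3 took larger shares in the knockout, with no overlap between the groups. Pairs in no gene made up 20.75% on average in knockout libraries (20.4% to 21.3%) against 19.6% in control libraries (18.9% to 20.1%). Pairs of low alignment quality made up 3.83% (3.60% to 4.09%) against 3.11% (2.91% to 3.30%), and unaligned pairs 1.247% (1.16% to 1.39%) against 1.02% (0.962% to 1.14%). Ambiguous pairs (1.46% in control, 1.45% in knockout) and pairs with several alignments (3.46% and 3.41%) overlapped between the groups. With 3 libraries a group these differences were given as values without a test, and their part in the SoxC values was not tested.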

How the results depend on the processing

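All 3 SoxC genes kept a negative log2 fold change in every setting run. With all libraries it lay between -0.41 and -0.37 for Sox4, -0.29 and -0.23 for Sox11 and -0.40 and -0.25 for Sox12, the last with GC correction. With the replicate block and a pair left out it lay between -0.41 and -0.39, -0.27 and -0.25, and -0.46 and -0.33. Without the block and with 1 library left out it lay between -0.53 and -0.29, -0.50 and -0.03, and -0.51 and -0.27. Counts of calls moved more. Over all genes they were 0 without the block, 20 with DESeq2 and 604 with the replicate block. With the block they were 1102 at an adjusted p under 0.1, 1034 with no filter, 384 with GC correction and between 174 and 521 with a pair left out. Pathway lists had 0 calls without the block in edgeR. With the replicate block other Sox genes had 4 (1 to 6 with a pair left out) and SoxC partner factors 4, but 3 with library totals, upper quartile scaling, a mean of at least 5 CPM, GC correction or without pair 1 or 2. Candidate SoxC-regulated genes had 5, but 3 with library totals, upper quartile scaling, a mean of at least 5 CPM or GC correction, and 2 to 4 with a pair left out. Differentiation regulators had 3, but 5 at an adjusted p under 0.1 and 1 to 6 with a pair left out. For these changes in count the cause was not tested, apart from the fewer libraries and the larger or smaller number of genes tested where those were the change. Counting error is small for the SoxC genes, with at least 2061 read pairs per library, so the spread between libraries and not depth limits them.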
